A study of Mus musculus with 12 samples.

Results

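This report concerns the adipocyte libraries of a mouse high-fat diet (HFD) study: 3 libraries of epididymal adipocytes and 3 of inguinal adipocytes, 6 of the 12 libraries in the series. They were taken by their sample labels, and the comparison between the depots was fitted to these 6 libraries alone. All samples came from males of the inbred strain C57BL/6J, which were 8 weeks old when the diet began and received it for 10 weeks, so the diet is shared by both groups and no lean group enters any value here. Epididymal adipose tissue is abbreviated EAT and inguinal adipose tissue IAT. Each depot had been dispersed with collagenase, and the adipocytes were separated from the stromal vascular cells (SVCs), whose 6 libraries appear below only as levels set beside the adipocyte values. The labels give neither the composition of the diet nor the number of animals behind a library, so p-values reflect only the spread among these libraries, part or all of which may be technical.

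EAT is a visceral depot that lies beside the epididymis in the abdomen, and IAT is a subcutaneous depot under the skin of the flank. Adipocytes in both store triglyceride in a large lipid droplet, release fatty acids by lipolysis and secrete hormones such as leptin and adiponectin. The depots arise from different embryonic precursors, and in obese mice the epididymal depot is known for stronger macrophage infiltration and the inguinal depot for its capacity to form thermogenic beige adipocytes.

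The files list 32182 genes by UCSC transcript identifier and do not pair them with gene symbols. None of the 61396 transcript identifiers was found in the reference tables used here. The 20 gene lists drawn up for adipocyte identity, lipogenesis, lipolysis, thermogenesis, depot patterning and other cell types therefore had 0 of 269 entries matched, the labelled cell type could not be checked against its defining markers, and no sequence could be assigned to a gene. Genes are described below in groups, by level, size of the depot difference, length and stromal level, and 4 genes are given by identifier. In a bulk library, fewer cells of a type and less RNA per cell cannot be told apart.

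The 6 libraries held 20707325 to 23882347 expected counts and had a count for 17598 to 17888 genes. One library stood apart, with higher values in short genes and lower values in long ones. EAT adipocyte replicate 2 correlated with EAT replicates 1 and 3 across genes at r = 0.936 and 0.942 (log2 CPM, where CPM is the count scaled to library size), whereas the other pairs of replicates reached 0.985 to 0.990. These coefficients run over genes, which are not independent, and only describe the libraries. No pair of replicates agreed within sampling noise, the lowest chi-square per degree of freedom being 15.1. The main counts are therefore given with and without EAT replicate 2.

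This comparison asks how fat cells of a visceral and a subcutaneous depot differ after the same diet. Of 14259 genes tested, 573 were at least 4-fold higher in EAT adipocytes (4.02% of genes tested) and 193 were at least 4-fold lower (1.35%), at an adjusted p below 0.05 by edgeR's quasi-likelihood test with Benjamini-Hochberg adjustment. At any size of difference, 4056 genes passed (28.4%), of which 2303 were higher (16.2%) and 1753 lower (12.3%) in EAT. The median log2 difference over all tested genes was 0.01, with quartiles of -0.41 and 0.49. The 3 EAT libraries and the 3 IAT libraries did not overlap for 6920 genes (48.5% of genes tested), 3491 with EAT higher (24.5%) and 3429 with EAT lower (24%).

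Leaving out EAT replicate 2 raised the number of genes that passed to 7778 of 14537 (53.5%), 3992 higher (27.5%) and 3786 lower (26%). The common biological coefficient of variation, the spread between replicates relative to the level, was 0.252 with 6 libraries and 0.124 without that library. Of the 4056 genes called with 6 libraries, 4043 were called again without it and all 4043 kept their direction. The 3609 tested genes called only without it differed less, with a median size of the log2 difference of 0.56, against 1.23 for the genes called in both fits. The total also moved with other libraries: 2032 genes passed without IAT replicate 1, 2104 without IAT replicate 2 and 2695 without IAT replicate 3, and the lower genes numbered 1086 without EAT replicate 1. The counts of at least 4-fold genes moved less. They lay between 418 and 731 for higher and between 172 and 272 for lower genes when each library was left out in turn, with 702 (4.83% of genes tested) and 272 (1.87%) without EAT replicate 2. Each of these fits tested its own set of genes. Over the genes tested both with 6 libraries and without EAT replicate 2, the latter fit gave 670 higher and 220 lower.

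**Figure D1:**
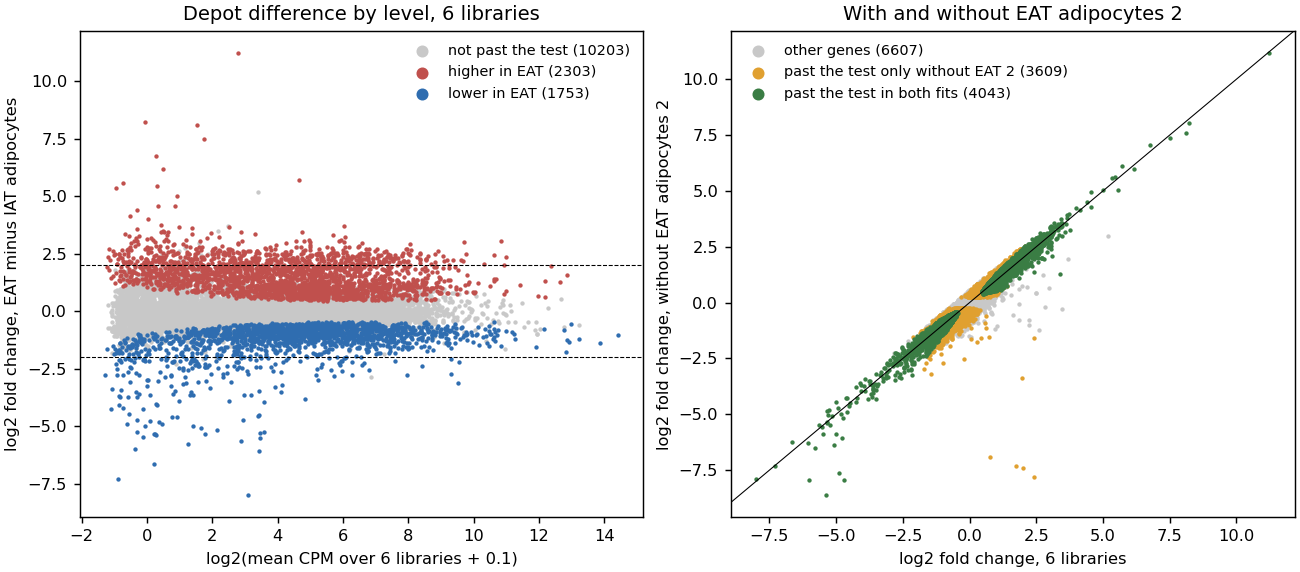
Left, log2 difference between EAT and IAT adipocytes against the mean level of each gene over 6 libraries (log2 of CPM + 0.1), with 2303 genes past the test as higher in EAT in red and 1753 as lower in blue; dashed lines mark 4-fold. Right, the same log2 difference with 6 libraries against that without EAT adipocyte replicate 2, where the 4043 genes past the test in both fits lie on the same side of 0 in both.

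The balance between the depots depended on the size of the difference. Between 4-fold and 8-fold the EAT-high genes were in the majority, but beyond 8-fold they were not. At 8-fold or more, 59 genes were higher in EAT (0.414% of genes tested) and 73 lower (0.512%), and at 16-fold or more 16 were higher (0.112%) and 37 lower (0.259%). When EAT replicate 2 was left out these counts were 67 (0.461%) and 114 (0.784%) at 8-fold, and 22 (0.151%) and 57 (0.392%) at 16-fold. That fit tested 14537 genes, more than the fit of 6 libraries. Over the genes tested in both fits, its counts at 8-fold were 58 higher and 83 lower. With genes limited to those that averaged 10 CPM or more in the higher depot, 349 were at least 4-fold higher in EAT and 71 lower, 18 and 20 were at least 8-fold apart, and 2 and 9 at least 16-fold apart. The same limit in the fit that left out EAT replicate 2 gave 424 higher and 78 lower at 4-fold, 17 and 24 at 8-fold, and 2 and 11 at 16-fold. At any size of difference, 1611 higher and 1307 lower genes met this limit with 6 libraries. Without EAT replicate 2 they numbered 2932 and 2824. Shares of all genes at that level were not computed. No test was made of the change in balance, and fitted fold changes of genes near 0 in one depot depend on the prior count of the fit.

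Few genes were detected in one depot and at or near 0 in the other. At least 1 CPM in all 3 EAT libraries together with at most 3 counts over the 3 IAT libraries was seen for 6 genes, and the reverse for another 6. The numbers were 7 and 11 without EAT replicate 2. One gene had at least 10 CPM in all 3 EAT libraries and below 1 CPM in all 3 IAT libraries, and 7 genes had the opposite pattern, or 1 and 8 genes with EAT replicate 2 left out. A count of 3 corresponded to 0.124 to 0.147 CPM in these libraries, which covers counting error only.

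The at least 4-fold genes of each direction are described here as a block, by their median level in each library. The 573 EAT-high genes had median levels of 21.3, 17.3 and 19.6 CPM in EAT adipocyte replicates 1 to 3, against 3.54, 2.95 and 5.29 CPM in IAT adipocyte replicates 1 to 3. The groups did not overlap, which the choice of these genes fixes, and among the IAT libraries replicate 3 was the highest. The 193 EAT-low genes had medians of 0.556, 0.633 and 0.716 CPM in EAT adipocytes and of 5.10, 5.41 and 3.86 CPM in IAT adipocytes, where replicate 3 was the lowest. The EAT-high genes were the more abundant block, with 8.00%, 6.31% and 6.22% of all counts in EAT adipocytes against 1.13%, 1.10% and 1.66% in IAT adipocytes. The EAT-low genes took at most 1.09% of counts in any IAT library and at most 0.210% in any EAT library.

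The blocks had different levels in the stromal libraries, which had no part in choosing these genes. In EAT SVCs the 573 EAT-high genes had a median of 18.1 to 21.9 CPM, and in IAT SVCs a median of 8.83 to 9.94 CPM. The block median in EAT SVCs was near that in EAT adipocytes, but most single genes were higher in the adipocytes. Of the 573, 139 (24.3%) had a higher mean in EAT SVCs than in EAT adipocytes, against 45.9% of all tested genes. The adipocyte level was used to choose these genes, so part of this gap is fixed by the choice. Of the 573 genes, 546 (95.3%) had a higher mean in EAT SVCs than in IAT SVCs, against 49.2% of all tested genes. The 193 EAT-low genes had medians of only 1.35 to 1.54 CPM in IAT SVCs and 0.744 to 0.868 CPM in EAT SVCs. Of these, 41 (21.2%) had a higher mean in IAT SVCs than in IAT adipocytes, against 53% of all tested genes, with the same limit from the choice. A higher mean in IAT than in EAT SVCs was found for 133 (68.9%), against 50.7% of all tested genes. Their lower quartiles were 0.106 to 0.296 CPM in the SVC libraries, where the direction of a difference is uncertain. The shares of the blocks are therefore not compared.

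The adipocyte level of each block was also set against the stromal level of the same depot. Of the EAT-low genes, 102 of 193 (52.8%) were at least 4-fold higher in IAT adipocytes than in IAT SVCs, against 8.88% of all tested genes. Of the EAT-high genes, 11 of 573 (1.92%) were at least 4-fold higher in EAT adipocytes than in EAT SVCs, against 5.49% of all tested genes. The converse, a stromal level at least 4-fold above the adipocyte level, was found for 39 EAT-high genes (6.81%, against 6.41% of all tested genes) and for 7 EAT-low genes (3.63%, against 9.39%). The at least 4-fold genes of the fit without EAT replicate 2 that were tested in both fits gave 1.34% for the EAT-high block and 55.9% for the EAT-low block in place of 1.92% and 52.8%. The adipocyte level enters both the choice of genes and these ratios, so the shares are descriptions. The EAT-low genes had lower quartiles of 0.237 to 0.296 CPM in IAT SVCs, where 4-fold ratios are uncertain. The shares of the blocks are therefore not compared here either. The part of RNA from stromal cells in the adipocyte libraries was not tested.

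**Figure D2:**
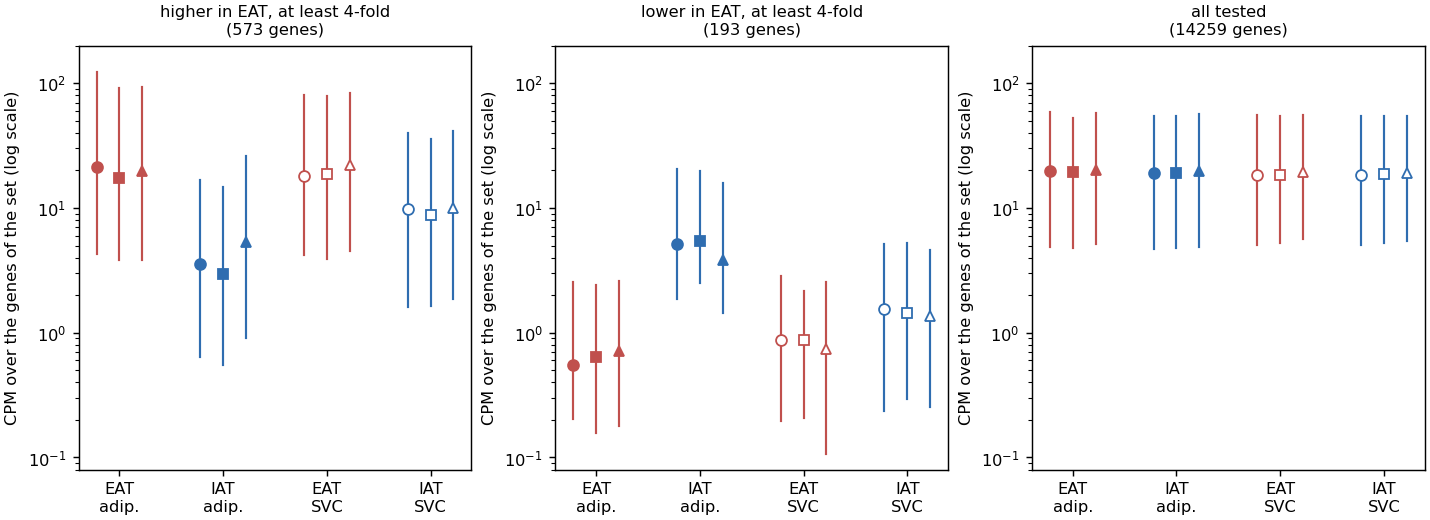
Median level (marker) and quartiles (line) in CPM, on a log scale, over the 573 EAT-high genes, the 193 EAT-low genes and all 14259 tested genes, in each of the 12 libraries; circles, squares and triangles are replicates 1, 2 and 3, and open markers are SVCs. The medians of the EAT-high genes are 17.3 to 21.3 CPM in EAT adipocytes and 18.1 to 21.9 CPM in EAT SVCs, although 139 of the 573 (24.3%) had the higher mean in EAT SVCs. Those of the EAT-low genes are 3.86 to 5.41 CPM in IAT adipocytes and 1.35 to 1.54 CPM in IAT SVCs.

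The genes at least 8-fold apart were set against the stromal level in the same way, with no test. The adipocyte level again enters both the choice of genes and the comparison. Of 59 higher genes, 24 (40.7%) had a higher mean in EAT SVCs than in EAT adipocytes, against 45.9% of all tested genes. At least 4-fold higher in EAT SVCs were 21 of the 59 (35.6%, against 6.41%), and at least 4-fold higher in EAT adipocytes were 6 (10.2%, against 5.49%). Their medians were 22.3 CPM in EAT SVCs and 3.52 CPM in EAT adipocytes. Of 73 lower genes, 18 (24.7%) had a higher mean in IAT SVCs than in IAT adipocytes, against 53% of all tested genes. At least 4-fold higher in IAT SVCs were 3 of the 73 (4.11%, against 9.39%), and at least 4-fold higher in IAT adipocytes were 40 (54.8%, against 8.88%). The fit that left out EAT replicate 2 was limited here to genes tested in both fits. In it, 20 of 58 higher genes (34.5%) and 3 of 83 lower genes (3.61%) had a stromal level at least 4-fold above the adipocyte level. The 73 genes had medians of 3.31 CPM in IAT adipocytes and 0.868 CPM in IAT SVCs.

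A few genes took a larger share of the counts in IAT than in EAT adipocytes in these libraries. The 10 genes with the most counts in each library took 8.25%, 9.68% and 8.59% in EAT replicates 1 to 3 and 14.2%, 11.9% and 14.1% in IAT replicates 1 to 3. The groups did not overlap, and IAT replicate 2 was the lowest of its group. The difference of the means was -4.55 percentage points, with an exact two-sided permutation p of 0.1, the smallest that 3 against 3 libraries allow (0.2 after adjustment over 8 such measures). The 100 genes with the most counts took 27.6% ± 2.36 in EAT and 33.3% ± 1.45 in IAT (SD, n = 3), with no overlap and the same exact permutation p of 0.1. In EAT, 50% of the counts were held by 629, 453 and 621 genes, and in IAT by 400, 462 and 411 genes. Here the groups overlapped through EAT replicate 2, and the exact permutation p was 0.2. On the length-corrected scale of the deposited TPM, a level scaled by transcript length and library, the top 10 genes held 12.1% ± 1.27 in EAT and 19.1% ± 2.74 in IAT (exact permutation p of 0.1).

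**Figure D3:**
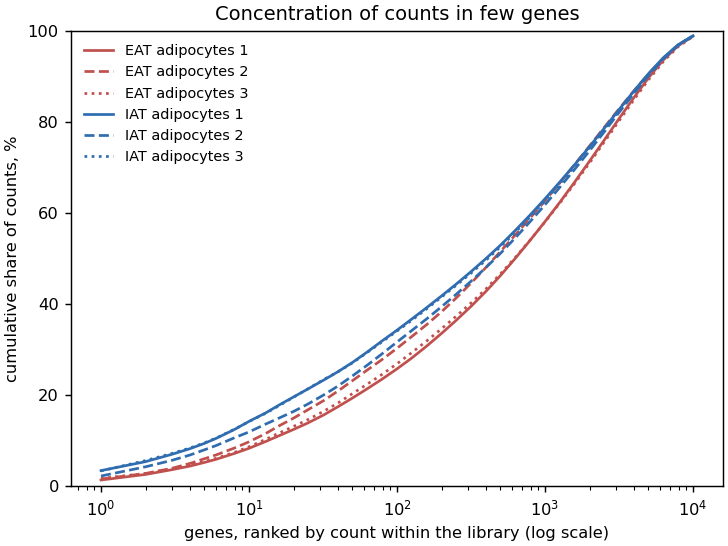
Cumulative share of counts, in percent, held by the genes of each library ranked by their count (log scale), for 3 EAT and 3 IAT adipocyte libraries. At 10 genes the IAT curves stand at 11.9% to 14.2% and the EAT curves at 8.25% to 9.68%, and at 1000 genes the EAT replicate 2 curve (62.7%) lies among the IAT curves (61.8% to 63.1%).

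Among the genes with the highest counts, more were lower than higher in EAT. Of 103 genes with a mean of 1000 CPM or more over the 6 libraries, 37 were lower in EAT (35.9%, against 12.3% of all tested genes) and 22 were higher (21.4%, against 16.2%), with a median log2 difference of -0.47. In the fit that left out EAT replicate 2, 54 of these genes were lower and 24 higher, and the median was -0.60. Between 100 and 1000 CPM the calls were nearly even, with 336 of 1722 genes lower and 377 higher and a median of 0.01. At 10 to 100 CPM, 838 of 7291 genes were lower and 1069 higher, and at 1 to 10 CPM, 430 of 3947 were lower and 686 higher. With EAT replicate 2 left out, these 3 levels held 590 lower and 611 higher, 2037 lower and 2125 higher, and 889 lower and 969 higher genes, so that the surplus of higher genes below 100 CPM was smaller relative to the calls. Of the at least 4-fold genes, 90 were higher and 9 lower at 100 to 1000 CPM (107 and 11 with that library left out), against 72 higher and 50 lower below 1 CPM (70 and 58). The test has more power at high counts, so shares called are not compared between levels.

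Ranked per length by mean TPM, the depots shared 5 of their 10 most abundant genes and 64 of their 100. Of the 10 most abundant genes of IAT adipocytes, 5 were lower in EAT and none was higher by edgeR's test, and without EAT replicate 2, 9 were lower and none higher. Of the 10 most abundant genes of EAT adipocytes, 4 were higher and 1 lower, and with the list ranked anew without that library 3 were higher and 6 lower. The lists of 100 gave 16 higher and 23 lower for IAT, and 44 higher and 10 lower for EAT, where 16.2% of all tested genes were higher and 12.3% lower. Leaving out that library gave 19 higher and 54 lower for the IAT list, and 54 higher and 22 lower for the EAT list ranked anew, where 27.5% of all tested genes were higher and 26% lower. A list ranked in one depot favours genes that are high there, so these counts carry no test.

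The genes named here were those with the largest difference in mean CPM in each direction. The gene uc007feo.2 (5 transcripts) had 12522, 10455 and 10405 CPM in EAT replicates 1 to 3 and 3358, 3443 and 4280 CPM in IAT replicates 1 to 3. Every EAT library stood above every IAT library, and the log2 difference was 1.59 (SE 0.19, adjusted p = 0.00152, edgeR), or 1.63 without EAT replicate 2. By mean TPM it ranked 36 in IAT and 6 in EAT. In SVCs its level was 5990 ± 279 CPM in EAT and 3780 ± 219 CPM in IAT (SD, n = 3), also without overlap.

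The gene uc009gvf.1 (2 transcripts, mean length of 970 bases) had 7745, 11348 and 5992 CPM in EAT replicates 1 to 3 and 2003, 2048 and 2371 CPM in IAT. The groups did not overlap, and EAT replicate 2, the library with raised values in short genes, was the highest. Its log2 difference was 1.97 (SE 0.26, adjusted p = 0.00208, edgeR), and 1.68 (SE 0.18) without that library. In SVCs it had 3810 ± 337 CPM in EAT and 2550 ± 58.0 CPM in IAT (SD, n = 3). Both genes had a higher mean stromal level in EAT as well, by a smaller ratio than in adipocytes; that difference between fractions was not tested.

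The genes with the largest difference in the other direction were among the most abundant of both depots. The gene uc009vey.1 (1 transcript) had 11951, 15286 and 15506 CPM in EAT replicates 1 to 3 and 34630, 20095 and 33525 CPM in IAT. The groups did not overlap, but IAT replicate 2 lay well below the other IAT libraries. The log2 difference was -1.05 (SE 0.26, adjusted p = 0.0205, edgeR) and did not pass without EAT replicate 1 (adjusted p = 0.0636), without IAT replicate 1 (adjusted p = 0.0867) or without IAT replicate 3 (adjusted p = 0.0643). This gene took 1.45% ± 0.205 of all counts in EAT and 2.88% ± 0.743 in IAT (SD, n = 3), the largest share of any gene in the mean of either depot. In SVCs it had 5550 ± 374 CPM in EAT and 6170 ± 234 CPM in IAT.

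The gene uc008hpr.2 (1 transcript, 4837 bases) had 7964, 7436 and 9831 CPM in EAT replicates 1 to 3 and 20366, 21400 and 23413 CPM in IAT, so that the lowest IAT library stood above the highest EAT library. The log2 difference was -1.37 (SE 0.19, adjusted p = 0.0023, edgeR), and -1.29 without EAT replicate 2. It took 2.14% ± 0.159 of all counts in IAT and 0.857% ± 0.156 in EAT (SD, n = 3). Its stromal level was low in both depots, at 91.8 ± 13.2 CPM in EAT SVCs and 117 ± 15.6 CPM in IAT SVCs.

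**Figure D4:**
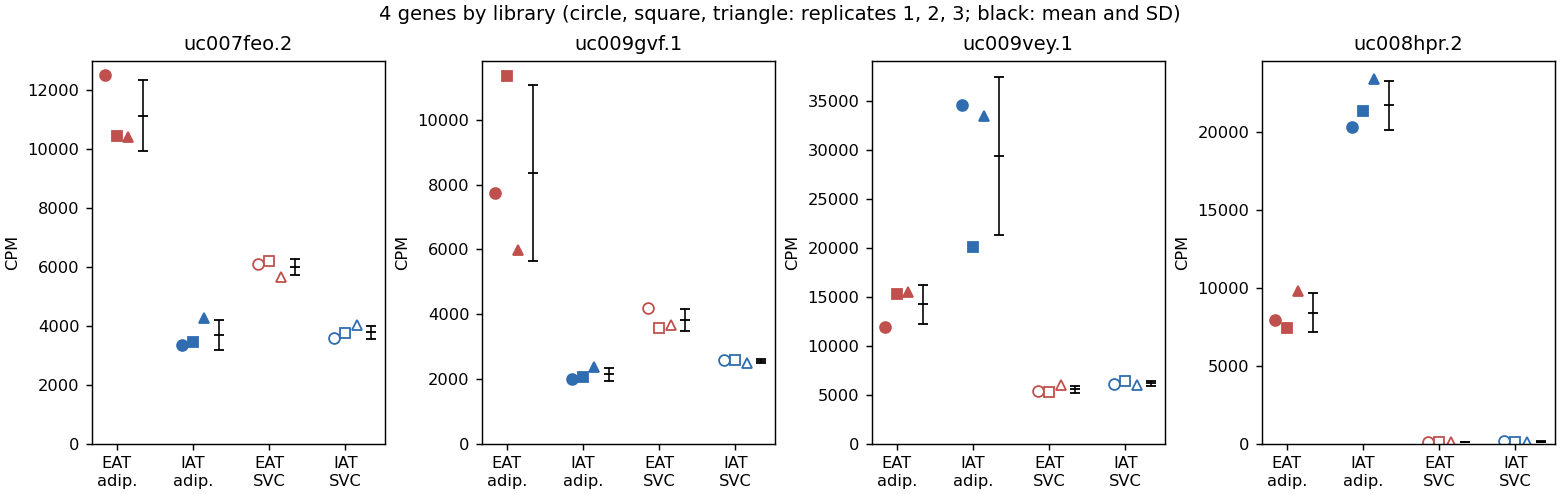
Level in CPM of 4 genes in each adipocyte library (filled) and each SVC library (open), with the mean and SD of 3 libraries in black. Each vertical axis starts at 0. Adipocyte CPM is scaled over the 6 adipocyte libraries and SVC CPM over all 12, so small differences between the fractions are not read. The genes uc007feo.2 and uc009gvf.1 are also higher in EAT than in IAT SVCs, whereas uc008hpr.2 reaches 20366 CPM or more in IAT adipocytes and at most 135 CPM in any SVC library.

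The direction of the calls went with gene length when EAT replicate 2 was included. Relative to EAT replicates 1 and 3, this library had a median log2 difference of 0.99 among the tenth of tested genes with the shortest length (median 817 bases) and of -0.94 among the tenth with the longest (median 6856 bases). In the IAT libraries these values lay between -0.03 and 0.04. With 6 libraries, 246 of 1426 genes of the shortest group were higher in EAT (17.3%) and 47 lower (3.30%), and in the longest group 99 were higher (6.94%) and 266 lower (18.7%). Both balances turned without EAT replicate 2, to 317 higher and 429 lower in the shortest group and to 441 higher and 387 lower in the longest. The log2 depot difference correlated with log2 length across genes at r = -0.147 with 6 libraries and r = 0.050 without that library, which describes the fits and carries no test.

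With each library's smooth trend with length taken out, 5846 of 14259 genes passed (41%), 3141 higher (22%) and 2705 lower (19%). The shortest group then held 22.9% higher and 18.9% lower genes, and the longest 21.9% and 20.8%. The at least 4-fold genes numbered 564 (3.96%) and 193 (1.35%). Of the genes called with the 6 libraries as deposited, 3921 (96.7%) were called in the same direction both after this correction and without EAT replicate 2.

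**Figure D5:**
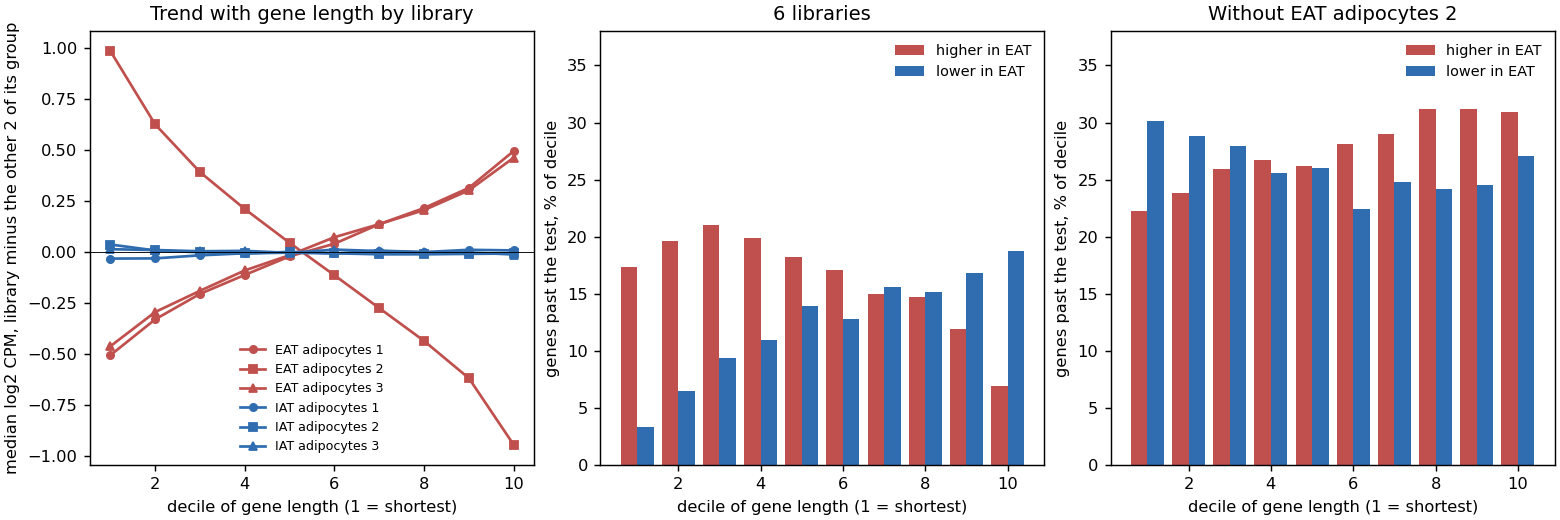
Left, median log2 CPM of each library minus the other 2 libraries of its group, by decile of gene length (1 is the shortest); EAT adipocyte replicate 2 runs from 0.99 to -0.94. Middle and right, genes past the test as a percentage of each decile, higher in EAT in red and lower in blue, with 6 libraries and without EAT adipocyte replicate 2; the red majority in the shortest decile (17.3% against 3.30%) turns to a blue one (22.2% against 30.1%).

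EAT replicate 2 was also compared over genes that were called in the fit without it, although the IAT libraries it is set against took part in those calls. The genes were limited to those tested in both fits, and EAT replicate 2 took part in the count filter of the fit that included it. At 4-fold, this limit left 670 of 702 higher and 220 of 272 lower genes. The choice was therefore not independent of this library, and the effect of the limit on the shares below was not tested. Of 670 genes at least 4-fold higher in EAT in the fit without this library and tested in both fits, it lay above all 3 IAT libraries for 638 (95.2%, against 43.4% of all genes tested in both fits), and it lay nearer to the mean of the other EAT libraries than to the IAT mean for 84.9%. Of 220 genes at least 4-fold lower, it lay below all 3 IAT libraries for 206 (93.6%, against 43.2% of all genes) and was nearer to EAT for 80%. At 2-fold the shares beyond the IAT libraries were 86.2% of 1948 genes and 85.0% of 1193 genes, and those nearer to EAT 70.8% and 68.4%. They depended on length: the library lay above the IAT libraries for 93.4% of 166 EAT-high genes of the shortest group and for 47.3% of 182 of the longest, against 81.5% and 9.4% of all genes of these groups. In the longest group it was nearer to EAT for only 15.4% of the EAT-high genes. After removal of the length trend the library lay above the IAT libraries for 90.4% and 91.2% of these genes, against 37.8% and 41.5% of all genes of the shortest and longest groups. The median difference of EAT replicate 2 from the IAT mean was 1.99 log2 for the 670 genes, against 2.32 for EAT replicates 1 and 3. Those replicates, like the IAT libraries, took part in the fit that called these genes.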

How the data were processed

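RNA libraries of the adipocyte fraction of 2 fat depots (3 libraries each) were compared. Per the file headers, each deposited table gives a gene's length, effective length, expected count, TPM and FPKM. Tools in the submitters' processing notes are Bowtie2 2.2.6, RSEM 1.2.25 and limma, with mm10 (GRCm38) as the build; their roles are not recorded there. Nothing states whether counting used strand, so overlapping, antisense and near-identical genes are uncertain. Deposited FPKM values were not used; deposited TPM values served for ranks and 1 alternative.

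Expected counts were rounded, filtered with filterByExpr (14259 of 32182 genes kept, over 99.9% of counts in each library), scaled by TMM and tested, two-sided, with edgeR 4.0.16 (R 4.3.3), with Benjamini-Hochberg adjustment over all tested genes at 0.05. Standard errors are the log2 difference divided by the square root of F. SVC levels use CPM scaled over all 12 libraries. Length trends were fitted by lowess (span 0.3) on each library's log2 CPM minus the mean of the libraries fitted. The pipeline was tested on simulated counts that held no length trend, so that test does not cover the trend of EAT replicate 2. Alternatives were other scalings, no filter, DESeq2 1.42.0, limma 3.58.1 (voom, library weights, log2(TPM + 1)), all 12 libraries, a replicate block, length correction and leaving out each library. Those on the fit without EAT replicate 2 were chosen after seeing the data.

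The genes named are the 2 in each direction with the largest difference in mean CPM among 2895 genes that passed with and without EAT replicate 2 in the same direction, did not overlap between groups and reached a mean of 10 CPM. The members, lists and rules were chosen with earlier results of these data known.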

Additional observations from a re-analysis of the deposited data

How the results depend on the processing

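The number of genes that differed between EAT and IAT adipocytes (4056) stayed within 1.5 times under DESeq2 (4795), limma-voom (3971), limma on log2(TPM + 1) (3172), the length trend taken out (5846), unfiltered genes (3944), scaling by library size (4029) or by DESeq2's factors (4043), and removal of the top 10 genes by count (4049). It moved to 7965 (4025 higher, 3940 lower) with limma-voom and library weights and to 6283 (2869 lower) with all 12 libraries. The lower genes moved from 1753 to 2705 with the length trend taken out and to 2789 with the replicate block and the length trend taken out. Leaving out 1 library gave 2032 to 7778 genes, 1206 to 3992 higher and 795 to 3786 lower. Each of these fits had 1 library fewer, and the cause of the range was not tested. No gene called with 6 libraries was called in the opposite direction in any of the 18 alternatives. Without EAT replicate 2, the 7778 genes became 6471 to 7601 when an IAT library was also left out. Leaving out EAT replicate 1 (5082 genes) or EAT replicate 3 as well left 1 EAT library. Such a fit holds no spread among EAT libraries, so 5082 is not read as a check of the 7778. The number was 7098 with the replicate block and 7278 to 7742 in the other alternatives. Of 36 values for at least 4-fold counts 34 stayed within 1.5 times; on the log2(TPM + 1) scale, which understates low genes, they were 248 and 74. At least 2-fold higher genes (1711) fell to 1065 on that scale and to 1101 without IAT replicate 2. The difference in the share of the top 10 genes was -4.15 to -5.31 percentage points without 1 library and -6.97 with TPM.

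Same-numbered libraries of the depots deviated from their group means with correlations of 0.018, 0.143 and 0.179 for replicates 1 to 3. Differently numbered libraries gave -0.162 to 0.099, the highest being EAT replicate 1 with IAT replicate 3. The EAT deviations carry the length trend of EAT replicate 2, so these values cannot decide whether the numbers are pairs. The main fit did not take them as pairs. With the replicate block 3609 genes passed. Of 69 values for the 4 named genes under the alternatives, 66 stayed past the threshold, none changed sign, and the 3 that did not pass concern uc009vey.1.

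Depth limits statements on genes near 0, since 3 counts correspond to 0.124 to 0.147 CPM.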

Other observations

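Genes with 1 transcript and genes with several were called about equally often. Of 4652 genes with 1 transcript, 27.8% differed between the depots, as did 28.8% of 6272 genes with 2 to 3 transcripts and 28.8% of 3335 with 4 or more. The direction differed: in the same order, 16.3%, 17.3% and 13.8% were higher in EAT and 11.4%, 11.5% and 15.1% lower. The median length of the groups was 2150, 2650 and 3460 bases. Without EAT replicate 2 the shares were 24.8%, 28.8% and 28.9% higher and 26.8%, 25.5% and 26.4% lower.

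Single genes also stood far from the other replicates of their group. EAT replicate 2 had 17 genes at least 8-fold above and 74 at least 8-fold below both other EAT libraries, counted on CPM + 0.1 with at least 1 CPM in the higher libraries. The other 5 libraries had 1 or 2 genes above and 0 to 7 below. The 17 genes had a median length of 615 bases and took 0.0354% of the counts of that library, and 7 of them were also at least 8-fold above all 3 IAT libraries. IAT replicate 2 had 1 such gene, at 524 CPM. Of the genes called without EAT replicate 2, 181 had the opposite sign in the fit of 6 libraries, 5 of them at least 4-fold apart without it, and none of the 181 passed with 6 libraries.

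Over 9116 genes with a mean of at least 10 CPM, the median SD of log2 CPM was 0.326 among the 3 EAT libraries, 0.118 among the 3 IAT libraries and 0.092 between EAT replicates 1 and 3. At the same spread, the median SD of 2 libraries runs lower than that of 3, so 0.092 is not ranked against 0.118.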
